A study of Mus musculus with 4 samples.

Results

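Pax7 binding was described at 516 of the 20579 Pax7 peaks deposited for iPax7 muscle progenitors, those with a summit within 25 kb of the transcription start site (TSS) of a gene in the group termed Active I. The group holds 401 genes that the study picked because a Pax7-bound enhancer contacts their promoter by promoter capture Hi-C. The study kept only genes whose expression differed among embryonic stem cells, progenitors and differentiated cells by one-way ANOVA. It then sorted them into groups by their expression pattern across these populations. The genes were therefore chosen through Pax7 peaks, and a surplus of peaks at these genes over other genes is no evidence of anything further. The members were taken by distance alone. Contacts were not analysed here, so a member need not be the enhancer that contacts the promoter. All 401 genes were placed by their Ensembl identifiers on the mouse genome build NCBIM37 (mm9), and all are annotated there as protein-coding.

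iPax7 cells are mouse embryonic stem cells that carry a Pax7 transgene under a doxycycline (Dox) switch, inserted beside Hprt. They were differentiated in a serum protocol, given Dox at 1 µg/ml from day 3, sorted as PDGFRα+FLK1- cells at day 5 and harvested at day 9 of differentiation, after 6 days of Dox. The data comprise 2 Pax7 ChIP-seq libraries and 2 input libraries, all from Dox-treated cells. Reads of the replicates were merged before peaks were called, so each peak has 1 value with no replicate error, and read depth is not part of the peak list. Every library came from cells with the transgene induced, no library without Dox was analysed here, and the list gives no expression with which the identity of the cells could be checked.

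Pax7 is a transcription factor of muscle stem cells (satellite cells) and their embryonic precursors. Its paired domain recognises sites with the core GTCACG, and its homeodomain recognises TAAT sites, alone, as a dimer or beside a partial paired site. Pax7 acts upstream of the myogenic regulators Myf5 and MyoD, which bind E-boxes such as CAGCTG, and it opens chromatin at distal enhancers as well as binding near promoters.

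The bases around the summits of 9 of the 10 members with the highest fold enrichment, which is the ChIP signal over the local background at the summit as the authors' peak caller gave it, show how often a Pax core stands beside the point of highest signal. Each is printed from the plus strand of NCBIM37, 30 bases to either side of the summit, with the paired-box core or the composite ATTAGTCA in capitals. The core lies at the very summit of the Nfkb1 peak and 8.5 and 26.5 bp from it at Rps26-ps1 and Ltv1, the Fam118b/Rpusd4 peak holds the composite, and the other 5 hold neither in the bases shown.
Nfkb1 (chr3:135336928-135336988): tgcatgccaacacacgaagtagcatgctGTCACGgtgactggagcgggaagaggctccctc
Mprip (chr11:59468972-59469032): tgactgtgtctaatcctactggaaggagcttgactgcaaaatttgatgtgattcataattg
BC034090 (chr1:157077252-157077312): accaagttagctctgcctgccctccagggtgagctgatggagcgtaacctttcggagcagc
Scrn1 (chr6:54515230-54515290): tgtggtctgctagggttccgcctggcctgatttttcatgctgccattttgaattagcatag
Rps26-ps1 (chr8:109974713-109974773): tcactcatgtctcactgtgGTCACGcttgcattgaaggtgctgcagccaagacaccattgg
Sorbs3 (chr14:70606223-70606283): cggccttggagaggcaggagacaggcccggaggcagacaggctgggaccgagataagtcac
Ltv1 (chr10:12890627-12890687): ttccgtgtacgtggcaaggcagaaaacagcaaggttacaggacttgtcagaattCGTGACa
Fam118b/Rpusd4 (chr9:35055118-35055178): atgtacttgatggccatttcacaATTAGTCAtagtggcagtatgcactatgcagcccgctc
Dpy19l3 (chr7:36532743-36532803): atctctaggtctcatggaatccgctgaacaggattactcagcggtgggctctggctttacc
In the Sorbs3 peak a core begins within the last bases shown and runs past them, 28.5 bp from the summit, so it is not capitalised.

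At muscle genes, the strongest member of Myf5, Dmrt2, Fgfr4 and Cxcr4 held no Pax core in the same 61 bases.
Myf5 (chr10:106924052-106924112): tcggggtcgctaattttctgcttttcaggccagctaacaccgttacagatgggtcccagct
Dmrt2 (chr19:25729040-25729100): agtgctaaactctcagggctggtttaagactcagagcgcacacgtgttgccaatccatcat
Fgfr4 (chr13:55270477-55270537): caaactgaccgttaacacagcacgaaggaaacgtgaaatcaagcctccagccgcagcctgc
Cxcr4 (chr1:130486260-130486320): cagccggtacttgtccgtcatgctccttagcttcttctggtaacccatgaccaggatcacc
The strongest members of Myod1 and Six2, and the Tcf7l2 and Trmt5 peaks, held both the paired-box core and the E-box. They are shown with 50 bases to either side of the summit and both motifs in capitals, and the core appears as its reverse complement CGTGAC.
Myod1 (chr7:53608681-53608781): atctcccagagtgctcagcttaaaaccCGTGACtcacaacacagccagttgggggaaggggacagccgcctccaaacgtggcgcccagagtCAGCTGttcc
Six2 (chr17:86095069-86095169): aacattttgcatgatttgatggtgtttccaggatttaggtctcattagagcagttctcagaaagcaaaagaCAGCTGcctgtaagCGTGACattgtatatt
Tcf7l2 (chr19:55821930-55822030): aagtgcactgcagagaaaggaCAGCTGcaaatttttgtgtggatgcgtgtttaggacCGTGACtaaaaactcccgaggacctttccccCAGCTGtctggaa
Trmt5 (chr12:74408853-74408953): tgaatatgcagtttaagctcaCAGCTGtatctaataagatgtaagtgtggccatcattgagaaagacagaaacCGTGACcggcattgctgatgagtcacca
In the Myod1 peak the core shares bases with an AP-1 site, TGANTCA, in the stretch CGTGACTCA.

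Of the 401 Active I genes, 276 had a member within 25 kb, which is 68.8% (95% Wilson interval 64.1 to 73.2%). Of all 22350 annotated protein-coding genes 38.7% had a Pax7 peak within that distance. This background is given only for scale, since the genes were chosen through Pax7 peaks, though not by this distance. The other groups the study made in the same way had 62.2% (Active II, 300 of 482 genes), 67.3% (Active III, 298 of 443) and 65.8% (Primed, 240 of 365 placed). Intervals cover counting error only. The members made 546 peak-gene pairs, with 1.36 ± 1.34 peaks per gene (SD, n = 401 genes). Just 1 peak was counted for 123 genes, 2 for 82, 3 for 42 and 4 or more for 29 genes. Of the 516 members, 29 lay near more than 1 Active I gene, and 86 (16.7%) were also within 25 kb of a gene of the other groups.

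The 125 genes without a member had their nearest Pax7 peak at a median of 48.1 kb, from 25.6 to 311 kb. For 66 of them it lay within 50 kb, and for 21 beyond 100 kb. Among these were Runx2, a regulator of skeletal development, with the nearest peak 43.8 kb from its TSS at 3.89-fold, and Snai2, a repressor of epithelial genes, with the nearest at 199 kb. Just inside the limit of 25 kb were the peaks of Hmgn3 at 24728 bp (4.36-fold), Gprc5a at 24892 bp (7.81-fold) and Itpripl2 at 24924 bp (6.67-fold). Just outside were those near Mest at 25007 bp (4.19-fold), Npas3 at 25016 bp (6.60-fold) and Rpl15-ps2 at 25114 bp (7.01-fold).

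Members were spread over both sides of the TSS, 243 upstream and 273 downstream, at a median distance of 8.84 kb. Within 1 kb of the Active I TSS lay 98 members, 65 upstream and 33 downstream, against 8 between 1 and 2 kb upstream and 19 between 1 and 2 kb downstream. A further 96 lay at 1 to 5 kb, 77 at 5 to 10 kb and 245 (47.5%, interval 43.2 to 51.8%) at 10 to 25 kb. In all, 223 summits (43.2%) were inside the body of the Active I gene they were near. For 102 members (19.8%) the nearest protein-coding TSS belonged to a gene outside the group. Within 1 kb of another member lay 48 members (9.30%), and 18 once peaks within 500 bp were merged. Neither this share nor the counts on each side of the TSS are given over all peaks, so neither is read as a trait of the members.

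**Figure D1:**
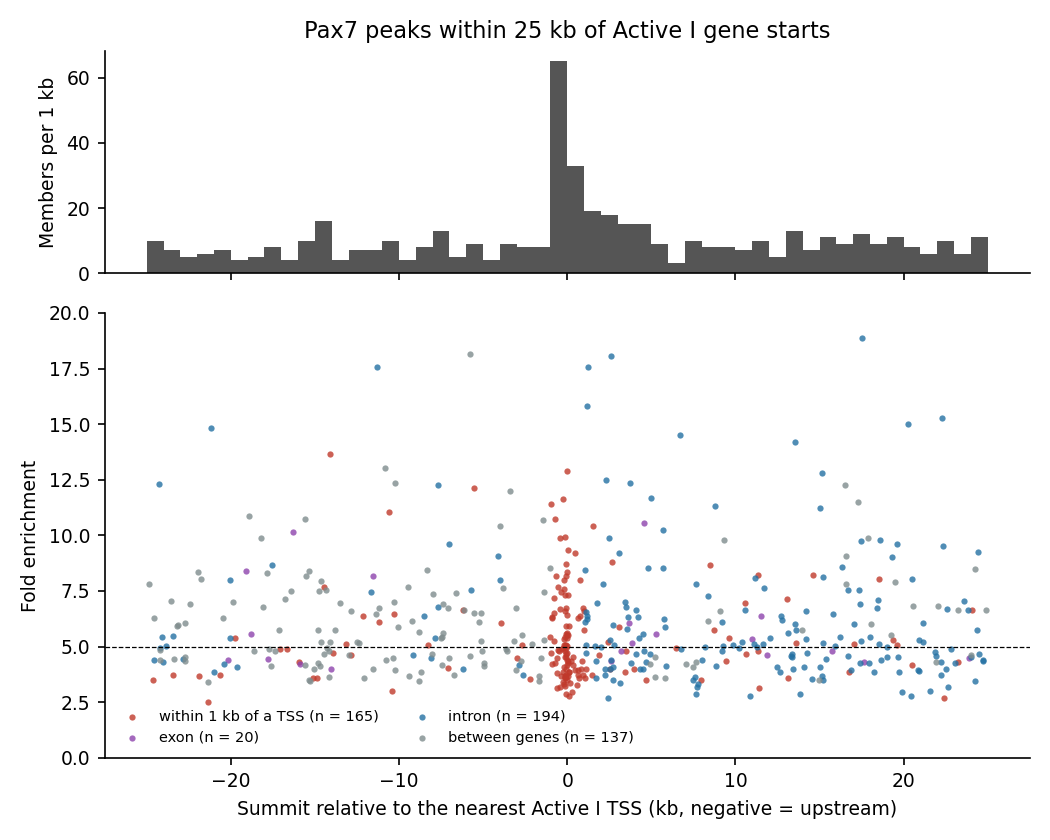
The upper panel counts the 516 members in 1 kb bins of the distance from the summit to the nearest Active I TSS (kb, negative upstream), and the lower panel plots each member's fold enrichment at the same distance, coloured by annotation, with a dashed line at 5-fold. The bin just upstream of the TSS holds 65 members, a count not given for other peaks and not read as a trait of the members. Introns hold 7 of the 8 members above 15-fold and 19 of the 39 at 10-fold or more, beside 598 of 1439 over all peaks at 10-fold or more.

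By annotation, 165 members (32.0%, interval 28.1 to 36.1%) had an annotated transcript starting within 1 kb of the summit, and of the rest 20 (3.88%) lay in exons, 194 (37.6%, 33.5 to 41.9%) in introns and 137 (26.6%, 22.9 to 30.5%) between genes. Of the intronic members 3 lay in no gene but Fgfr2 or Gm20388, whose annotated spans of 3.01 and 4.43 Mb run over their neighbours, and the TSS used for Fgfr2 is the start of that span. The 7660 other Pax7 peaks within 25 kb of a protein-coding TSS were divided as 36.9% near a TSS, 3.30% in exons, 32.9% in introns and 26.9% between genes. Members within 1 kb of a TSS had a median of 4.88-fold, those in introns 5.14-fold and those between genes 5.73-fold. Over all Pax7 peaks the medians of these classes were 4.96, 5.23 and 5.23-fold. No test was made of these values, which come from the measurement that defined the peaks.

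Fold enrichment of the members ran from 2.50 to 18.9 with a median of 5.13 (quartiles 4.25 and 6.85), and the median over all Pax7 peaks was 5.22. At least 5-fold enrichment was reached by 277 members (53.7%), with 54.9% among all peaks, and at least 10-fold by 39 members (7.56%, interval 5.58 to 10.2%), with 6.99% among all peaks. Both shares lie near the background.

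The 10 members with the highest fold enrichment lay in an intron in 9 cases, and 5 of them held the paired-box core within 50 bp of the summit. Introns held 19 of the 39 members at 10-fold or more, 37.6% of all members and 42.1% of all peaks. The core was in 13.2% of all members and 11.1% of all peaks. Nothing further is read from 10 members picked by strength. The strongest, at chr3:135336777-135337208 in an intron of Nfkb1, 17.6 kb downstream of its TSS, was enriched 18.9-fold with a −log10 q of 105, and its core was centred 0.5 bp from the summit. Nfkb1 encodes the p105 and p50 subunits of NF-κB. The peak ranked 61 of all 20579 peaks by fold enrichment. The next lay 5.81 kb upstream of Mprip, which links myosin phosphatase to RhoA and actin, at chr11:59468839-59469198 with 18.1-fold enrichment and an AP-1 site 21 bp from the summit. Intronic peaks of BC034090 (18.1-fold) and Scrn1 (17.6-fold) held an E-box but no core. The peak counted for Rps26-ps1 (17.5-fold) lay 11.3 kb upstream of that gene in an intron of Wwp2, a ubiquitin ligase, with a core 8.5 bp from the summit.

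Sorbs3, which encodes the focal adhesion protein vinexin, had a peak of 15.8-fold in an intron 1.19 kb downstream of its TSS. The peak of 15.3-fold counted for Ltv1, a factor of 40S ribosome assembly, lay 22.3 kb downstream in an intron of Fam164b, and that of 14.8-fold counted for Trmt5, a tRNA methyltransferase, lay 21.2 kb upstream in an intron of Slc38a6. A peak of 15.0-fold was within 25 kb of both Fam118b and Rpusd4, at 20.2 and 20.3 kb, in an intron of Fam118b, where Srpr is annotated too. The tenth, 14.5-fold, was in an intron of Dpy19l3. For Ltv1, Trmt5 and Rps26-ps1 the peak thus lay in the intron of a gene other than the Active I gene.

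Nfkb1 also had the most members, 7, with fold enrichment of 18.9, 8.58, 8.02, 6.98, 4.53, 3.46 and 2.71. Of these, 4, the strongest included, stood together in an intronic stretch 16.4 to 20.5 kb downstream of the TSS, and the other 3 were nearer the TSS or upstream of it.
Zfp760, a zinc finger gene, had 6 members of 9.94, 7.95, 5.22, 4.88, 4.88 and 4.80-fold, the strongest 0.161 kb upstream of its TSS. Parvb, which encodes the focal adhesion protein beta-parvin, had 6 of 9.02, 6.72, 5.35, 4.84, 4.44 and 4.28-fold. Hist1h2ae, a histone H2A gene in the replication-dependent histone cluster, had 6 of 6.45, 5.76, 5.06, 4.36, 4.00 and 3.49-fold, of which 5 lay within 1 kb of an annotated transcript start and 1 in an exon of Hist1h2be. The genes of this cluster are short and stand close together, so the limit of 25 kb takes in peaks at several of them. Mfap3l was the first by strength of 8 genes with 5 members, with 12.5, 8.54, 4.68, 3.41 and 2.69-fold.

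The list of myogenic and mesodermal regulators held 16 genes, of which 11 (68.8%, interval 44.4 to 85.8%) had a member. Their 23 members had a median of 5.93-fold, with 19 at 5-fold or more, and 2 lay within 1 kb of a TSS. Over all members the median was 5.13-fold and 53.7% reached 5-fold, over all Active I genes 68.8% had a member, and the lists were drawn up with earlier results known, so nothing particular to the list is read from this.

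Myf5, which with Myod1 commits cells to the muscle lineage, had 4 members. The strongest, at chr10:106923933-106924199, lay 0.892 kb upstream of the TSS with 6.32-fold enrichment and an E-box 28.5 bp from the summit. The second was in an intron 1.16 kb downstream (6.24-fold), and 2 lay between genes 12.4 kb (5.17-fold) and 17.6 kb (4.11-fold) upstream, where the nearest TSS is that of Myf6. None of the 4 held a Pax core or homeodomain dimer within 50 bp of its summit. Myod1 had 2 members. At chr7:53608576-53608893, 23.1 kb upstream between genes, the enrichment was 5.99-fold and the window held a core, an E-box and an AP-1 site. The other, 4.19-fold and 20.5 kb downstream, was within 1 kb of a TSS of Kcnc1.

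Dmrt2, a factor of somite maturation, had 1 member 17.8 kb upstream (chr19:25728867-25729242, 8.31-fold) and 1 at 9.11 kb downstream (chr19:25755818-25756176, 6.60-fold). The second held a homeodomain dimer with a gap of 3 bases 35 bp from its summit. Six2, a homeobox gene of mesenchymal progenitors, had 1 member 7.53 kb upstream at chr17:86094948-86095264 (5.40-fold), with a core 37.5 bp and an E-box 23.5 bp from the summit.

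Of the remaining regulators, the imprinted zinc finger gene Peg3 had the highest value, 10.9-fold at 18.9 kb upstream. Mab21l1 had 1 member of 9.59-fold, 7.05 kb upstream in an intron of Nbea. The homeobox gene Hlx had 3 members, up to 8.49-fold at 24.2 kb downstream, and Plagl1, an imprinted zinc finger gene, had 3, up to 7.54-fold at 17.3 kb downstream with a core 14.5 bp from the summit. Vgll3, which encodes a cofactor of Tead proteins, had a member of 6.40-fold in an intron with an E-box 2.5 bp and a Tead site 27.5 bp from the summit. Osr1 (5.76-fold) and Pbx3 (5.28-fold) completed the 11. Runx2, Lbh, Snai2, Atoh8 and Cited1 had none.

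Of 12 genes of satellite cells and the muscle membrane, 11 had a member (91.7%, interval 64.6 to 98.5%), beside 68.8% of all Active I genes. Their 26 members had a median of 5.12-fold, and 14 reached 5-fold or more, beside 53.7% of all members. This list too was drawn up with earlier results known, and nothing particular to it is read from these values. Boc, a Hedgehog co-receptor at the surface of myoblasts, had a member of 14.2-fold in its own intron at chr16:44545265-44545641, whose −log10 q of 107 was the highest of all members. Fgfr4, the FGF receptor of myogenic progenitors, had 3 members, of 12.3, 7.91 and 6.81-fold. All 3 lay between genes 16.5, 19.5 and 22.1 kb downstream of the TSS, past the end of the gene, and none held a Pax core. Cxcr4, the chemokine receptor of migrating muscle precursors, had 3 weak members. They had 4.33-fold (in an exon), 3.68-fold (0.070 kb from the TSS) and 3.65-fold (14.1 kb upstream), all below the median over members.

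The adhesion molecule gene Vcam1 had 3 members, up to 9.20-fold in an intron with a core 38.5 bp from the summit. Bves, which encodes a Popeye domain protein of the muscle membrane, had 5, up to 8.51-fold. Lama2, the laminin chain of the muscle basement membrane, had 2, up to 7.67-fold at 0.528 kb upstream with a pair of Tead sites. Lower values were found at Ehd2 (6.63-fold), Itm2a (6.28-fold), Sgce (5.44-fold, within 1 kb of a TSS and nearest to Peg10) and Megf10 (3.97-fold). Neo1 had its nearest peak at 78.9 kb.

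**Figure D2:**
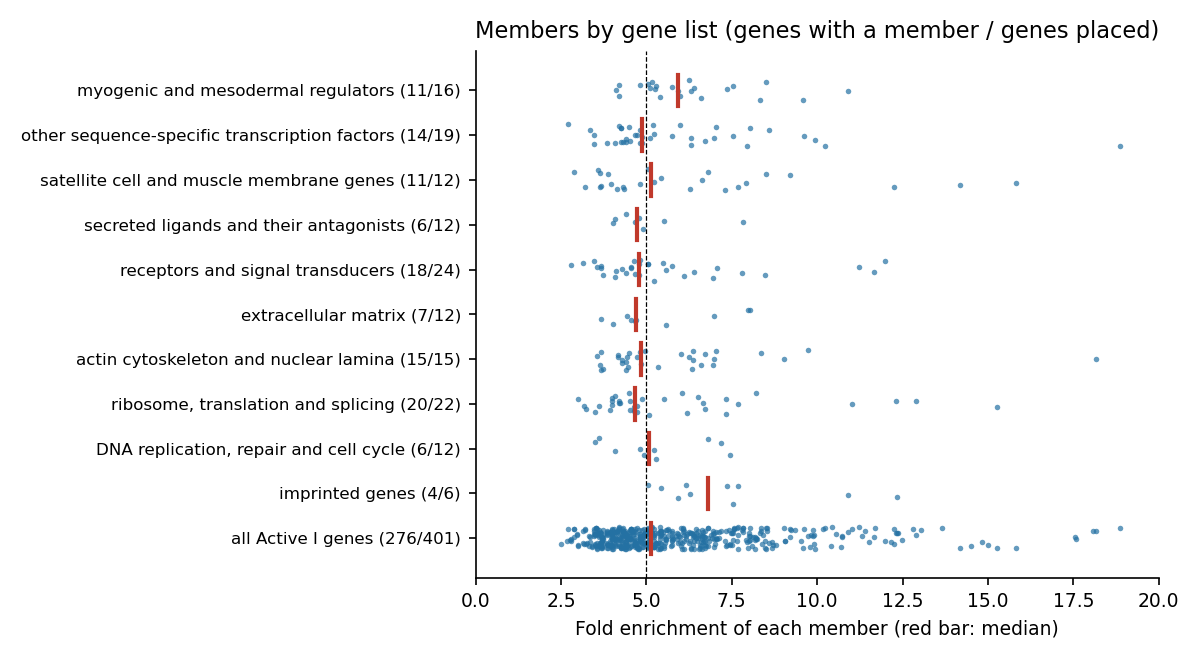
Each point is the fold enrichment of 1 member near a gene of the list on the left (jittered vertically), the red bar is the list's median, the dashed line marks 5-fold, and the figures in brackets are genes with a member of genes placed. The medians lie between 4.68 and 6.82 and the lists overlap throughout.

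The counts of the remaining lists stand beside 68.8% of all Active I genes with a member. Among the other transcription factor genes, 14 of 19 had a member and the 39 members had a median of 4.88-fold. After Nfkb1 the highest were Tcf7l2, the Wnt pathway factor, with 10.2-fold in its own intron, then Zfp760, and Creb3l1, an endoplasmic reticulum stress factor, with 9.60-fold at an intronic peak that holds a core, an E-box and AP-1 sites. Myc and Pparg had none within 25 kb, with the nearest at 88.6 and 34.5 kb. Receptors and signal transducers had a member in 18 of 24 genes, led by the phosphatase gene Ptprj (12.0-fold), the cytokine signalling inhibitor Socs5 (11.7-fold at 0.277 kb upstream), the ubiquitin ligase of Wnt receptors Rnf43 (11.2-fold) and Mchr1 (8.46-fold). Egfr had none. Secreted ligands and their antagonists had a member in 6 of 12 genes, among them Adm (5.51-fold), Pgf (4.78-fold) and Wnt16 (4.68-fold), while Wnt5a and Bmp6 had none.

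Extracellular matrix genes had a member in 7 of 12, led by Hyal2 (8.02-fold), Chst15 (7.98-fold), Npnt (6.97-fold) and Chst2 (5.56-fold). The Hyal2 members lay 13.9, 18.5 and 21.9 kb from its TSS, each within 1 kb of another annotated transcript start. The Chst15 member lay 3.97 kb upstream of its TSS. All 15 genes of the actin cytoskeleton and nuclear lamina had a member (interval 79.6 to 100%), beside 68.8% over all Active I genes. Of these genes 7 had a member of 5-fold or more. Their members had a median of 4.84-fold, below the 5.13-fold over all members, led after Mprip by Gsn (9.73-fold), Parvb (9.02-fold) and Frmd6 (7.04-fold). In the ribosome, translation and splicing list 20 of 22 genes had one, with a median of 4.68-fold. After Ltv1 the highest were the mitochondrial ribosome gene Mrps15 (12.9-fold at 0.015 kb from the TSS), Rpl13 (12.3-fold) and Rpl18 (11.0-fold). The peaks of Rpl13 and Rpl18 were nearest to the TSS of Spg7 and Dbp. In DNA replication, repair and cell cycle 6 of 12 had one, led by Cks2 (7.44-fold), Lin9 (7.20-fold), Bub3 (6.80-fold, 7.69 kb upstream) and Recql (5.28-fold). The Recql peak lay 19.4 kb downstream of its TSS, within 1 kb of an annotated transcript start. Of 6 imprinted genes 4 had one, Mest (12.3-fold, a peak counted for Tsga14 as well), Peg3, Plagl1 and Sgce. All 10 of their members reached 5-fold or more, beside 53.7% of all members and 54.9% of all peaks. All 10 lists were drawn up with earlier results known, and nothing particular to any list is read from these values. The short lists have wide intervals, and no difference between lists was tested.

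Sequence was not used to choose the members, so the 101 bp around each summit were compared with a window of the same width centred 500 bp to its right by McNemar's exact test, two-sided, adjusted by Benjamini-Hochberg over 8 motifs. The motifs searched on both strands were the paired-box core GTCACG, the homeodomain dimers TAATNNATTA and TAATNNNATTA, the E-box CAGCTG, Runx TGTGGTT, Tead GGAATG, AP-1 TGANTCA and a control, GACTCG, made of the letters of the core. The test runs over sites of 1 pooled list and not over replicates.

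The paired-box core was found in 68 member windows (13.2%, interval 10.5 to 16.4%) and in 7 flanks (1.36%), a difference past the threshold (McNemar's exact test, adjusted p = 9.3e-13). It occurred in 11.1% of all Pax7 peaks and in 14.6% of the other peaks near protein-coding genes. The 69 matches lay at a median of 17.5 bp from the summit, 47 of them within 25 bp. The core was held by members of 63 Active I genes. By strength it was in 9 of 39 members at 10-fold or more (23.1%, interval 12.6 to 38.3%). It was in 37 of 238 between 5 and 10-fold (15.5%, 11.5 to 20.7%) and 22 of 239 below 5-fold (9.21%, 6.16 to 13.5%). These intervals overlap between neighbours. The split by strength is not given over all peaks, so nothing particular to the members is read from it.

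The homeodomain dimers were rare. The dimer with a gap of 2 bases was in 2 windows (0.388%) and 0 flanks (adjusted p = 0.67 by McNemar's exact test), with 0.831% over all peaks. The dimer with a gap of 3 was in 7 windows (1.36%) and 1 flank (adjusted p = 0.11, same exact test), with 0.991% over all peaks. A core or a dimer was present in 77 members (14.9%, interval 12.1 to 18.3%), near the 12.9% over all peaks. These 77 had a median of 5.93-fold against 5.06-fold in the 439 without, values not given over all peaks and not read as a trait of the members. The composite ATTAGTCA, a homeodomain site beside a partial paired site that was looked up with earlier results known and not tested, was in 13 windows (2.52%), 1 flank and 2.94% of all peaks. With it, 89 members (17.2%) held a Pax sequence, a sum that is not given over all peaks.

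Sites of 3 other factor families were also more frequent at the summits than in the flanks. The E-box was in 67 windows (13.0%, interval 10.4 to 16.2%) and 25 flanks (4.84%, McNemar's exact test, adjusted p = 2.5e-05), with 15.7% over all peaks. With windows of 25 bp to either side of the summit the E-box no longer passed, at an adjusted p of 0.058 by the same exact test. AP-1 was in 41 windows (7.95%) and 10 flanks (1.94%, exact test, adjusted p = 2.5e-05), with 6.82% over all peaks. Tead, the site of the Hippo pathway factors, was in 57 windows (11.0%) and 30 flanks (5.81%, exact test, adjusted p = 0.0090), and its share over all peaks was the same to 3 digits, 11.0%. Runx did not pass, with 15 windows (2.91%), 17 flanks (adjusted p = 0.85, exact test) and 3.63% over all peaks. The control was in 9 windows (1.74%) and 7 flanks (adjusted p = 0.85, exact test), with 1.51% over all peaks. GC content was 49.1 ± 9.11% (SD over 516 windows) at the summit and 47.3 ± 11.5% in the right flank, and its part in the motif differences was not tested.

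**Figure D3:**
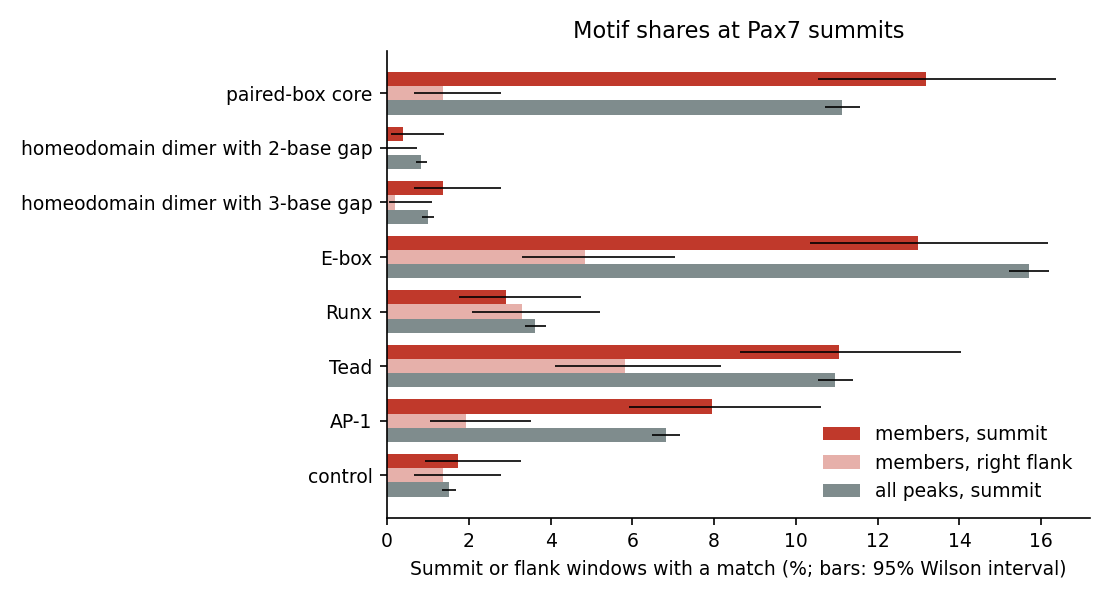
Share of 101 bp windows (%) that hold each motif at member summits (red), in the right flank of members (pale) and at the summits of all 20579 peaks (grey), with 95% Wilson intervals. The core, E-box, Tead and AP-1 stand above their flanks, and the members' bars lie near those of all peaks.

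**Figure D4:**
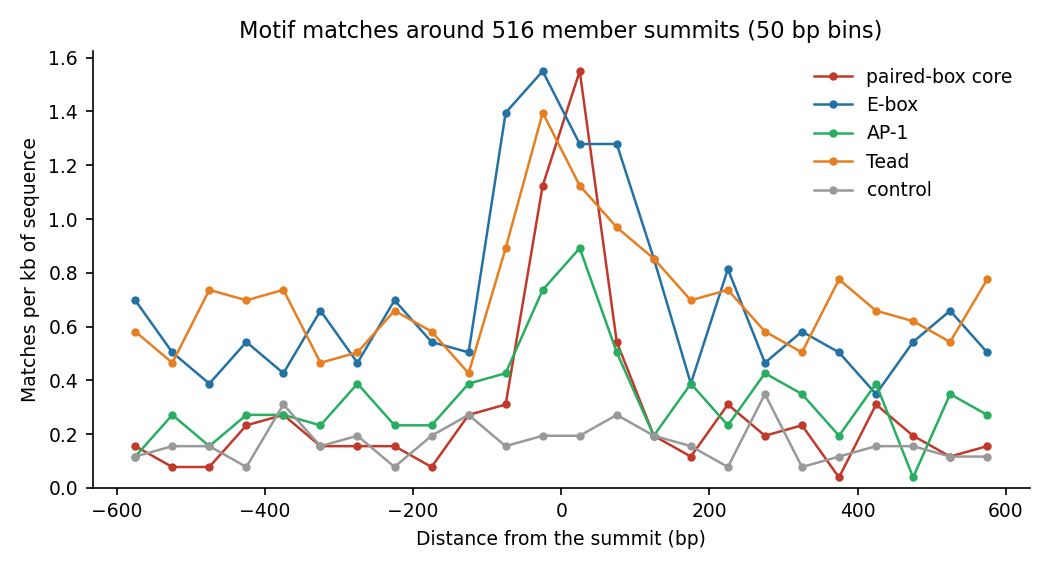
Matches per kb of sequence in 50 bp bins by distance from the summit (bp) over 516 members. The core peaks within 50 bp of the summit (1.12 and 1.55 matches per kb) and E-box matches remain raised out to 100 bp on both sides, while the control stays at or below 0.349.

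Members near a TSS and away from it are set side by side. Within 1 kb of any TSS the E-box was in 10 of 165 windows (6.06%, interval 3.32 to 10.8%), and beyond 1 kb in 57 of 351 (16.2%, 12.8 to 20.5%). AP-1 was in 3.64% (1.68 to 7.71%) and 9.97% (7.26 to 13.6%), and Tead in 9.09% (5.59 to 14.5%) and 12.0% (8.98 to 15.8%), with intervals that overlap for both. The core was in 16.4% near a TSS (11.5 to 22.8%) and 11.7% away from it (8.73 to 15.5%), intervals that overlap too. GC content was 54.7 ± 10.3% (SD, n = 165) near a TSS and 46.5 ± 7.13% (SD, n = 351) away from it, and CpG counts were 5.50 and 2.03 per 100 bases. No test was made of these side-by-side values. The same split is not given over all peaks, so nothing particular to the members is read from it.

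The motifs met in few members. Core and E-box were both present in 10 windows, those near Bnip3l, Creb3l1, Dnase1, Gm10941 and Pofut2 (1 shared peak), Lrp12, Myod1, Rpl13, Six2, Tcf7l2 and Trmt5. Core and AP-1 were both present in 9, and in 4 of these, near Fam65a, Gnb2l1, Myod1 and St5, they overlapped as CGTGACTCA, so the 2 matches count the same bases. These 4 members had 6.72, 6.03, 5.99 and 7.56-fold enrichment. No core overlapped an E-box. None of the 7 factor motifs was found within 50 bp of 302 summits (58.5%), which says only that these letters were not in the window. Joint and absent motifs are not given over all peaks, so nothing particular to the members is read from these counts. The members with several motifs were singled out after their values were seen.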

How the data were processed

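The libraries, 2 Pax7 ChIP and 2 inputs of iPax7 cells in Dox, were sequenced as single reads of 50 bp. The authors mapped these to mm9 using bowtie2 (2.3.4.1), kept unique alignments, took out duplicates with Picard (1.88), pooled the replicates and ran MACS2 (2.1.1) with a q-value limit of 0.01. The authors deposited 1 pooled peak list. Its fold enrichment is a ratio computed by the authors over the local background, and the deposited list further gives −log10 of the p-value and q-value, a score made from the −log10 q, and the summit. Only the fold enrichment, the −log10 q and the summit were used, to order, select and describe peaks. The list carries no read counts, so depth per peak is unknown and intervals (95% Wilson) cover counts of peaks or genes only. Per-sample columns that matched no sample numbered 0.

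Genes were placed with GENCODE vM1 on NCBIM37, with the gene start or end as TSS by strand, and coordinates are 1-based. Of the gene sheet only the Ensembl identifiers were used. A summit with any annotated transcript start at 1 kb or less was classed as near a TSS, and the others as exon, intron or between genes. Motifs were searched in 101 bp windows, and the summit window was compared with the right flank by McNemar's exact test. The distance rule, the motif search and the test were tried on simulated data. The simulated summits and flanks had the same base composition, unlike those of the members, so the simulation does not cover that difference. No other result was tested, since fold enrichment and the genes come from the contrast that chose the members.

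The members, gene lists, motifs and tests were chosen with earlier results of these data known. Named are the genes of the muscle lists with a member, the 10 strongest members, the 5 genes with most members, the peaks next to the 25 kb limit and up to 4 genes of each other list. Some genes of the ligand list are not reported here. Genes without a member, the composite motif and the members that hold several motifs were named in addition, after their values were seen. Alternatives were limits of 10, 50 and 100 kb, the TSS of any transcript, any part of a peak in place of its summit, peaks joined across gaps of up to 500 bp, minimum values of 5 for fold enrichment or −log10 q, other motif windows and the left flank. The analysis used scipy 1.17.1, pandas 2.3.3, numpy 2.4.6 and matplotlib 3.10.9 in Python 3.11.15. ChIP-seq of other factors, RNA-seq and pCHi-C were not analysed here.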

Additional observations from a re-analysis of the deposited data

How the results depend on the processing

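No paired analysis was possible because the peaks were called on merged libraries and carry no replicate numbers. Of 175 combinations of result and alternative, 142 kept the direction, the side of the threshold or a value within a wide margin of the reported one. That margin took in the Active I genes with a member, 276 within 25 kb. They numbered 202 within 10 kb, 342 within 50 kb, 380 within 100 kb and 194 with fold enrichment of at least 5. With the TSS of any transcript, the margin also took in 674 members, 70 of them within 1 kb of another. The number of members, 516 within 25 kb, was 271 within 10 kb, 861 within 50 kb and 1460 within 100 kb, and 277 with fold enrichment of at least 5. Members per gene were then 0.696, 2.33, 4.13 and 0.731, members within 1 kb of another member 26, 73, 137 and 12 (18 after merging peaks within 500 bp), and the share within 1 kb of a TSS 46.5%, 26.1%, 21.5% and 27.8% (28.0% with the TSS of any transcript). Genes with a member within 10 kb numbered 7 of the myogenic list, 9 of the other transcription factors, 7 of the satellite cell list and 4 of the matrix list. Within 100 kb they numbered 11 for ligands, 11 for matrix and 10 for DNA replication, and at 5-fold or more 2 for ligands, 4 for matrix, 7 for actin and lamina and 9 for ribosome and translation.

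The E-box did not pass with windows of 25 bp to either side, where summit and flank differed by 2.71 percentage points (McNemar's exact test, adjusted p = 0.058). The differences that turned sign were those of Runx, at 1.16 points with 100 bp and 0.388 against the left flank, and of the control, at -0.570 beyond 1 kb from a TSS, neither of which passed the test. The paired-box core, AP-1 and Tead passed in every setting tried. With 1 pooled list and no read counts, the spread between replicates and the depth behind a peak are unknown.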
